A study of Homo sapiens with 6 samples.

Results

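The genes of microtubules and their motors, namely kinesins, cytoplasmic dyneins, dynactins, tubulins and the minus-end proteins of the CAMSAP family, were examined in PANC-1, a long-established cell line from a human pancreatic cancer. Members were all genes whose symbol in the deposited signal table begins with KIF followed by a digit or C, with DYNC or DYNL, with DCTN and a digit, with TUBA, TUBB or TUBG, or with CAMSAP, where CAMSAP2 appears as CAMSAP1L1. This gave 90 of 30563 named genes, and 66 of the 90 had a probe bright enough to be tested among 13715 tested genes in all. The siNR4A1 group held 3 arrays of cells transfected with a small interfering RNA against the orphan nuclear receptor NR4A1, and siControl held 3 arrays of cells given a control small interfering RNA. Sample titles write the first group siTR4A1, while the series design writes siNR4A1. The sequences and doses of the interfering RNAs and the time after transfection were not given in the sources used here.

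Microtubules are hollow polymers of alpha- and beta-tubulin that grow and shrink at a plus end, while the minus end is anchored by the gamma-tubulin ring complex or capped by CAMSAP proteins. Most kinesins walk toward plus ends and carry cargo or build the mitotic spindle. Cytoplasmic dynein, with dynactin as its cofactor, walks toward minus ends and moves organelles, nuclei and chromosomes, and a separate dynein returns cargo along the axoneme of cilia.

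Signals came from Illumina expression arrays and are given below on a log2 scale after background correction with an offset of 50 and quantile normalization, so that small signals are compressed. A difference is siNR4A1 minus siControl, with its standard error (SE) from limma and 3 arrays in each group. Adjusted p-values are limma's, after Benjamini-Hochberg adjustment over all 13715 genes, and a gene rose or fell where the adjusted p was under 0.05. Each gene is read by its brightest probe unless another is named, and levels of different probes are not set against each other. Mean signal per array ran from 439 to 520 in siNR4A1 and from 332 to 623 in siControl, and siControl replicate 3 was the brightest array. Nothing in the labels tells whether the arrays of a group were grown as separate cultures, and the p-values therefore reflect the spread between these arrays alone, part or all of which may be technical. The number of arrays limits the precision. In bulk RNA, fewer cells of one kind and less RNA per cell cannot be told apart. None of the 3 NR4A1 probes was detected on any of the 6 arrays, so the knockdown was not measured. Of the PANC-1 markers, KRT8, KRT18, EPCAM and VIM were detected on all 6 arrays, KRT19 on 2 siNR4A1 and 3 siControl arrays, and KRT7 on none. Defining markers of ciliated cells (FOXJ1, DNAI1, DNAH5 and RSPH1) and of neurons (RBFOX3 and ELAVL4) were on none either. The neuronal genes MAP2 and SYP were detected on all 6 arrays. The summed signal of these 8 ciliated and neuronal genes ran from 962 to 1090 in siNR4A1 and from 856 to 1470 in siControl. Of 13 markers of blood, endothelial, fibroblast, acinar and islet cells, 8 were detected on no array and 1, COL1A1, on all 6. Their sum ran from 1300 to 1490 in siNR4A1 and from 1160 to 1540 in siControl. Both sums add non-normalized linear signals, mostly of genes not detected on any array, and so depend on the brightness of each array. Their ranges overlapped between the groups, but for that reason cannot show whether such cells differed. The part of such cells in the results was not tested.

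Among the 66 tested, 9 members rose and 7 fell, while 50 did not pass. The 16 that changed were 24.2% of tested members, against 19.5% of all tested genes. The share that rose was 13.6%, against 10.8% of all tested genes, and the share that fell was 10.6%, against 8.70%. The median difference was 0.04 over tested members and 0.02 over all tested genes. The 3 arrays of one group lay entirely to one side of the other 3 for 33 of the 66 tested members, against 35.4% of all tested genes. A change of at least 1.5-fold past the threshold was met by 3 members, CAMSAP2, TUBA4A and DYNC2LI1, or 4.55%, against 5.04% of all tested genes. All 16 changed members had groups that did not overlap, as did all but 62 of the 2674 changed genes in all. At an unadjusted p under 0.05 in limma, 16 members were higher and 15 lower, or 31 of 66, against 32.2% of all tested genes.

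**Figure D1:**
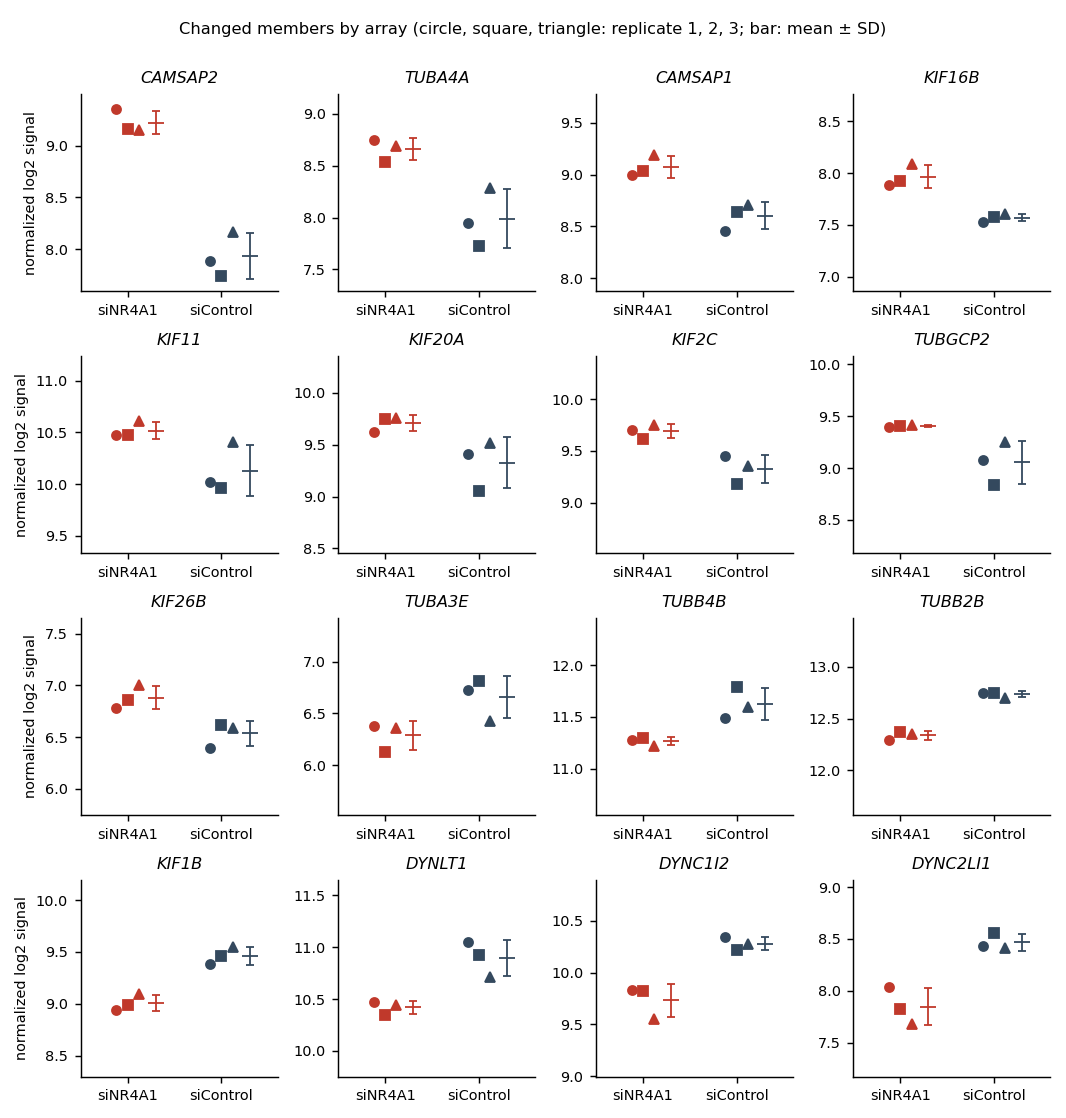
Normalized log2 signal (vertical axis, the same span in every panel) of the 16 changed members on the 3 siNR4A1 arrays (left, red) and the 3 siControl arrays (right, dark), with the mean ± SD beside the points. The groups do not overlap in any panel, and CAMSAP2, with values from 9.15 to 9.35 in siNR4A1 and from 7.74 to 8.17 in siControl, shows the widest gap.

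Whether a member changed depended on how the arrays were scaled. Equalizing array medians in place of quantile normalization left 0 of 66 members past the threshold in limma, with 3 at an unadjusted p under 0.05, and 0 of 13715 genes. Median signals of the arrays, from 92.8 to 125, lay below each array's detection threshold, from 96.9 to 131. This scaling was therefore set at a level where probes did not count as detected. The SE of CAMSAP2 was 0.29 under it, against 0.12 in the main setting. Under that scaling the median difference of all genes moved to 0.13. Taken relative to that median all 16 changed members, which were called on these same arrays, kept their direction. With the medians of detected probes equalized, 5 of the 16 passed, namely CAMSAP2, CAMSAP1, TUBA4A, DYNC1I2 and DYNC2LI1. With an offset of 16 the calls of KIF11, KIF20A, KIF2C, TUBA3E, TUBB4B and TUBGCP2 ended, and with no detection filter those of KIF11, KIF20A, KIF26B, TUBA3E and TUBGCP2. Without siNR4A1 replicate 3 the number of changed members was 7, without siNR4A1 replicate 1 it was 8, and without siControl replicate 3 it was 21.

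The CAMSAP proteins, which bind and stabilize free microtubule minus ends, gave the largest rise of any member. CAMSAP2 had log2 signals of 9.35, 9.16 and 9.15 in siNR4A1, against 7.89, 7.74 and 8.17 in siControl. Every siNR4A1 array lay above every siControl array, and the difference was 1.29 ± 0.12 (SE) or 2.44-fold (limma, adjusted p = 3.68e-06). It lay between 1.19 and 1.44 over the 16 alternative settings, and its call was lost only when array medians were equalized. CAMSAP1, its broadly expressed relative, had 9.0, 9.03 and 9.19 in siNR4A1, against 8.46, 8.64 and 8.71 in siControl. It rose by 0.47 ± 0.11 (SE), a smaller change, with an adjusted p of 0.00811, and without siNR4A1 replicate 3 it stood at 0.41 and no longer passed. The epithelial relative CAMSAP3, which the table lists as KIAA1543 and which is no member, was not detected on any array with either of its 2 probes.

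Among alpha-tubulins, 1 of 6 tested genes rose, 1 fell and 4 did not pass, where 10.8% of all tested genes rose and 8.70% fell. TUBA4A, an alpha-tubulin whose gene does not encode the usual final tyrosine, had 8.75, 8.54 and 8.69 in siNR4A1, against 7.95, 7.73 and 8.29 in siControl. It rose by 0.67 ± 0.13 (SE) or 1.59-fold (limma, adjusted p = 0.00216), and all siNR4A1 arrays lay above the siControl arrays. Its neighbour in the RefSeq gene order, TUBA4B, was not detected on any array. The table's symbol for that gene is TUBA4, an older name.

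TUBA3E, an alpha-tubulin with near-identical copies, had 6.38, 6.13 and 6.36 in siNR4A1, against 6.73, 6.81 and 6.43 in siControl. Its probe was detected on 1 siNR4A1 and 3 siControl arrays, so it entered the test through siControl, where it was higher. The adjusted p was 0.0499 at a difference of -0.36 ± 0.12 (SE). The call ended with an offset of 16, at -0.58, with no background correction and in the authors' log2 values, at -0.27 in both, and with no detection filter. Leaving out any one array but siControl replicate 3 ended the call, at differences of -0.41, -0.28 and -0.39 without siNR4A1 replicates 1, 2 and 3, and of -0.34 and -0.30 without siControl replicates 1 and 2. TUBA3D, its close copy, differed by -0.24 ± 0.12 (SE, adjusted p = 0.200), with overlapping groups.

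The alpha-tubulin genes TUBA1A, TUBA1B and TUBA1C are neighbours in the genome and share most of their coding sequence. Probe sequences were not used here, so whether a tubulin probe also reads a near-identical copy is uncertain. TUBA1A differed by 0.01, TUBA1B by -0.12 and TUBA1C by 0.23, with adjusted p-values of 0.975, 0.50 and 0.200, and the arrays of both groups overlapped for each. A second TUBA1A probe, ILMN_1742981, had 12.71, 12.84 and 12.35 in siNR4A1, against 12.93, 13.70 and 12.85 in siControl. It differed by -0.52 ± 0.19 (SE, adjusted p = 0.0677 in the fit over probes), and siControl replicate 2 stood apart from the other two siControl arrays. A second TUBA1C probe differed by -0.22, opposite in sign to the first. Without siControl replicate 3, the brightest TUBA1C probe passed at 0.37.

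Of 8 tested beta-tubulins, 0 rose, 2 fell and 6 did not pass, and at an unadjusted p under 0.05 in limma 0 were higher and 4 lower. At that threshold 17.8% of all tested genes were higher and 14.4% lower. The differences of 7 of the 8 were below 0, against 6366 of 13715 over all tested genes. With array medians equalized only 4 of the 8 were below 0, and 6 of the 8 lay below the median of all genes. TUBB2B, a beta-tubulin best known from developing neurons, had 12.29, 12.37 and 12.35 in siNR4A1, against 12.75, 12.75 and 12.70 in siControl. The arrays within each group were close together, and the difference was -0.40 ± 0.10 (SE, limma, adjusted p = 0.0134). Without siNR4A1 replicate 1 it stood at -0.37 and did not pass. TUBB2A, its neighbour in the gene order and nearly the same protein, differed by -0.16 ± 0.12 (SE, adjusted p = 0.382), and whether the neighbours differ from each other was not tested.

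TUBB4B, a widely expressed beta-tubulin that the table lists as TUBB2C, had 11.28, 11.30 and 11.22 in siNR4A1, against 11.49, 11.79 and 11.60 in siControl. It fell by 0.36 ± 0.11 (SE) with an adjusted p of 0.0337 in limma. The call ended without siNR4A1 replicate 1, 2 or 3, at -0.37, -0.37 and -0.34, and without siControl replicate 2, at -0.28. TUBB6 and the probe named for the pseudogene TUBB7P had lower values on all siNR4A1 arrays than on any siControl array, at differences of -0.29 and -0.32, with adjusted p-values of 0.102 and 0.0540. TUBB7P passed under 7 of 16 alternatives. TUBB3, the class III beta-tubulin of neurons, differed by -0.07, and the probe named TUBB4, an older symbol, by 0.00.

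TUBB, the main beta-tubulin gene, showed a split between probes like that of TUBA1A. Its brightest probe had 12.75, 12.67 and 12.74 in siNR4A1, against 12.67, 12.46 and 12.82 in siControl, a difference of 0.07 ± 0.12 (SE, adjusted p = 0.720). The second probe, ILMN_1665583, had 11.50, 11.70 and 11.39 in siNR4A1, against 11.99, 12.64 and 11.59 in siControl. It differed by -0.54 ± 0.19 (SE, adjusted p = 0.0656 in the fit over probes), with overlapping groups and again the highest value on siControl replicate 2. Of 16 members with more than 1 kept probe, 7 had probes on both sides of 0, and 4 of these were tubulins, TUBA1A, TUBA1C, TUBB and TUBG1.

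**Figure D2:**
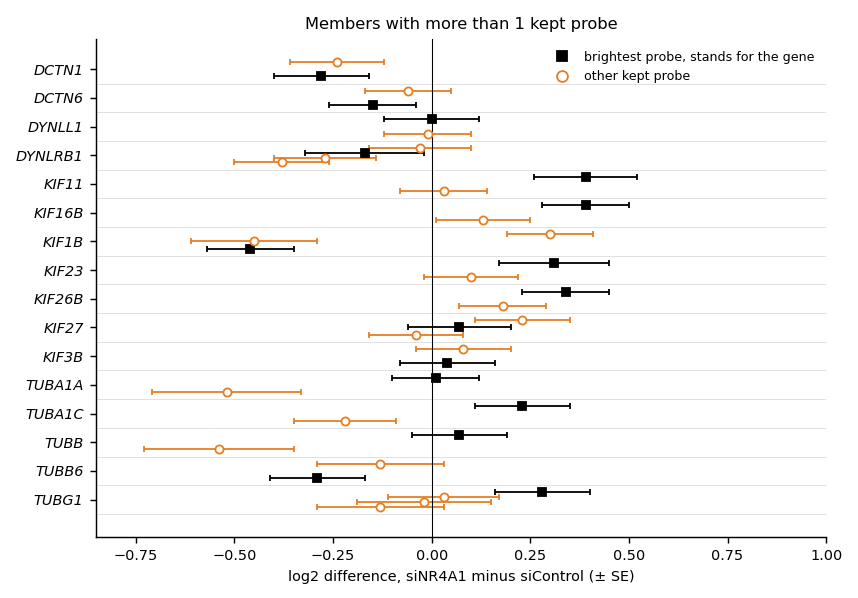
Difference of siNR4A1 minus siControl (horizontal axis, log2) ± SE for every kept probe of the 16 members that had more than 1. The black square is the brightest probe, which stands for the gene, and open circles are the others: TUBA1A at 0.01 against -0.52, TUBB at 0.07 against -0.54 and KIF1B at -0.46 against 0.30 lie farthest apart.

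Gamma-tubulin nucleates microtubules within a ring complex that the TUBGCP proteins build. TUBG1, the main gamma-tubulin gene, had 11.13, 11.17 and 11.32 in siNR4A1, against 11.10, 10.77 and 10.90 in siControl. Its siNR4A1 arrays all lay above siControl, at a difference of 0.28 ± 0.12 (SE, adjusted p = 0.0986), but its 3 other probes differed by 0.03, -0.02 and -0.13. TUBG2, its neighbour and near copy, differed by 0.13 ± 0.11 (SE, adjusted p = 0.447).

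TUBGCP2, a core subunit of the ring complex, had 9.40, 9.41 and 9.42 in siNR4A1, against 9.08, 8.84 and 9.25 in siControl. It rose by 0.35 ± 0.12 (SE, limma, adjusted p = 0.0467), and its siControl arrays were spread more widely than its siNR4A1 arrays. Leaving out any one array but siControl replicate 3 ended the call, at 0.36, 0.35 and 0.34 without siNR4A1 replicates 1, 2 and 3, and at 0.36 and 0.25 without siControl replicates 1 and 2. The other 4 subunits, TUBGCP3, TUBGCP4, TUBGCP5 and TUBGCP6, did not pass, at differences of -0.10, 0.14, -0.04 and 0.09. The TUBGCP3 probe was detected on 2 arrays of each group.

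**Figure D3:**
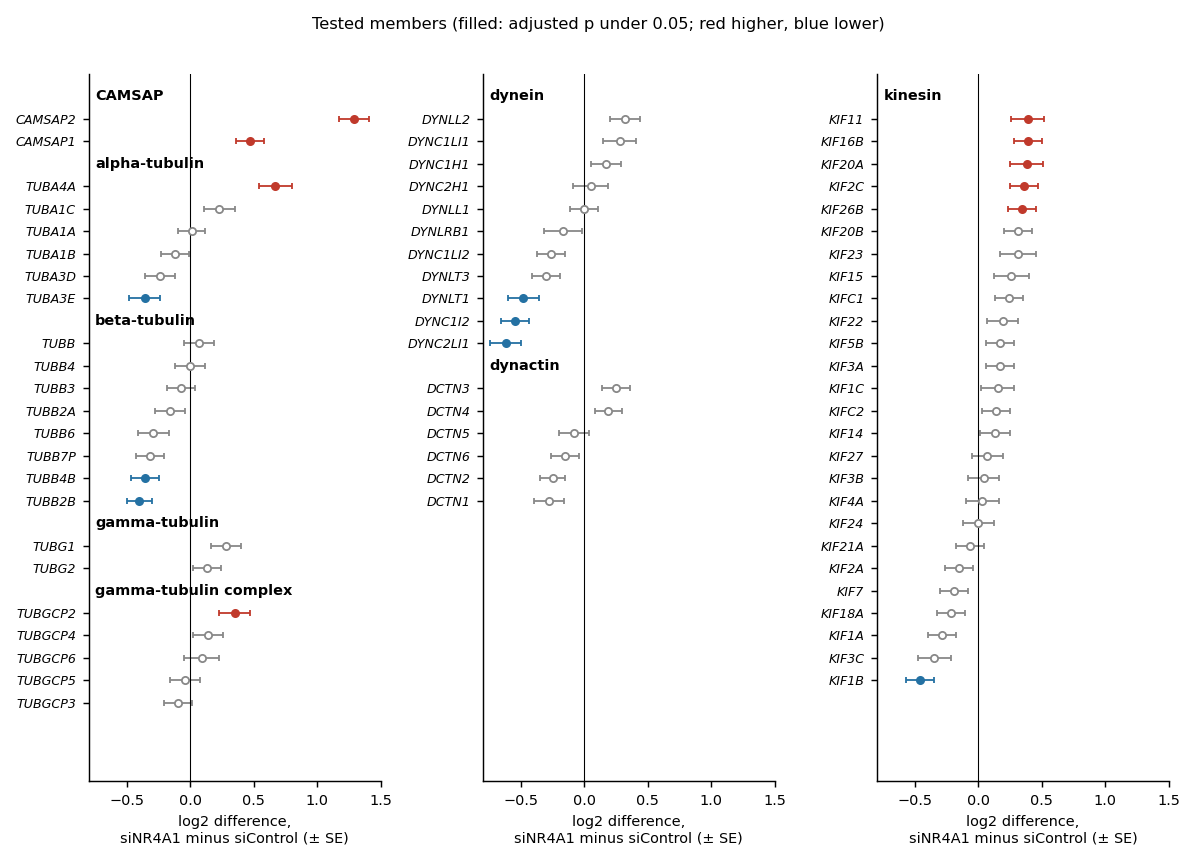
Difference of siNR4A1 minus siControl (horizontal axis, log2) ± SE for all 66 tested members, grouped by family and sorted within it. Filled points had an adjusted p under 0.05, red where the gene rose and blue where it fell: CAMSAP2 at 1.29 stands far from the rest, which lie between -0.62 and 0.67.

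Of 26 tested kinesins, 5 rose, 1 fell and 20 did not pass. The share that rose was 19.2%, against 10.8% of all tested genes, and the share that fell was 3.85%, against 8.70%. The median difference of the 26 was 0.14, against 0.02 over all tested genes. Of the 26 differences 18 were above 0, against 7349 of 13715 over all tested genes. Among 11 tested kinesins of mitosis 3 rose, 0 fell and 8 did not pass, and at an unadjusted p under 0.05 in limma 6 were higher and 0 lower, against 17.8% and 14.4% of all tested genes. Their median difference was 0.26, and 10 of the 11 were above 0 under every setting that kept all arrays. Without siNR4A1 replicate 1 or without siControl replicate 3, 9 of the 11 were above 0. This list was drawn up with earlier results of these arrays known, among them rises of other mitotic genes. KIF2A, a depolymerase, was placed outside it and differed by -0.15, with all siNR4A1 arrays below siControl.

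KIF11, the motor that pushes spindle poles apart, had 10.47, 10.47 and 10.61 in siNR4A1, against 10.02, 9.96 and 10.41 in siControl. It rose by 0.39 ± 0.13 (SE, limma, adjusted p = 0.0402). Its dimmer probe, ILMN_1794539, had 9.26, 9.31 and 9.32 in siNR4A1, against 9.19, 9.33 and 9.28 in siControl, a difference of 0.03 with overlapping groups. With the mean of both probes KIF11 stood at 0.21 and did not pass. It also missed the threshold without siNR4A1 replicate 1, 2 or 3, at 0.41, 0.41 and 0.34, and without siControl replicate 1 or 2, at 0.33 and 0.30.

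KIF20A, which recruits the chromosomal passenger complex to the central spindle for cytokinesis, had 9.62, 9.75 and 9.76 in siNR4A1, against 9.41, 9.05 and 9.52 in siControl. It rose by 0.38 ± 0.13 (SE, limma, adjusted p = 0.0419). KIF2C, a depolymerase that corrects faulty kinetochore attachments, had 9.70, 9.62 and 9.75 in siNR4A1, against 9.45, 9.18 and 9.35 in siControl. It rose by 0.36 ± 0.11 (SE, limma, adjusted p = 0.0305). In both genes siControl replicate 2 was lowest, and without it the differences were 0.25 and 0.29 and neither passed. The calls also ended without siNR4A1 replicate 1, 2 or 3, at 0.43, 0.36 and 0.36 for KIF20A and at 0.36, 0.40 and 0.33 for KIF2C, and for KIF20A without siControl replicate 1, at 0.43.

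The other mitotic kinesins did not pass. KIF20B, which acts in cytokinesis, had 10.43, 10.50 and 10.46 in siNR4A1, against 10.15, 10.07 and 10.24 in siControl. Its groups did not overlap, and at a difference of 0.31 its adjusted p of 0.0509 lay just above the threshold, which it passed under 6 of 16 alternatives. KIF23, the motor subunit of centralspindlin, differed by 0.31 with overlapping groups and an adjusted p of 0.120, and passed at 0.42 without siControl replicate 3. KIFC1, a minus-end-directed kinesin that clusters spindle poles, differed by 0.24, KIF15 by 0.26, KIF22 by 0.19, KIF14 by 0.13 and KIF4A by 0.03. KIF18A, which damps chromosome oscillations, was the 1 kinesin of this list with a difference below 0, at -0.22 ± 0.11 (SE, adjusted p = 0.156), with all siNR4A1 arrays below siControl. KIF2B, KIF4B and KIF18B were not tested, and KIF4B is an intronless copy of KIF4A.

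Promoters of genes that peak in mitosis often carry CCAAT boxes, bound by NF-Y, and a cell cycle homology region, bound by the DREAM complex. The windows of the 3 mitotic kinesins that rose, and of TUBA4A as the tubulin with the largest change, are shown for comparison. Each window runs from 250 bases before the annotated start to 50 after it in RefSeq's GRCh38.p14 table, and 76 of the 90 members had one. Capitals mark matches on either strand to CCAAT, to the cell cycle homology region (TTTGAA or TTCGAA) or to the GC box GGGCGG. The NR4A monomer site AAAGGTCA was searched as well, and none of the 4 motifs overlapped another in these windows.
KIF11, chr10:92592880-92593179, plus strand: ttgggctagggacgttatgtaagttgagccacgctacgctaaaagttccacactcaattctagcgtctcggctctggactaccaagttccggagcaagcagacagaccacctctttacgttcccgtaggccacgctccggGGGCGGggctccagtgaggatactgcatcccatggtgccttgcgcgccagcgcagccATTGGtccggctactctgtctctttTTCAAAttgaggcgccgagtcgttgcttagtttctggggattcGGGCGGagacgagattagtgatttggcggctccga
KIF20A, chr5:138178862-138179161, plus strand: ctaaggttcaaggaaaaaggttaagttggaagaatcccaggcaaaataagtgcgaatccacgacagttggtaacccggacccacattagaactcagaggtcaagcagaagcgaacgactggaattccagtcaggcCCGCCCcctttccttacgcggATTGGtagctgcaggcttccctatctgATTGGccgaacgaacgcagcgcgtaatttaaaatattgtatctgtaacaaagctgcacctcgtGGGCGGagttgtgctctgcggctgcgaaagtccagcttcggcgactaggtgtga
KIF2C, chr1:44739587-44739886, plus strand: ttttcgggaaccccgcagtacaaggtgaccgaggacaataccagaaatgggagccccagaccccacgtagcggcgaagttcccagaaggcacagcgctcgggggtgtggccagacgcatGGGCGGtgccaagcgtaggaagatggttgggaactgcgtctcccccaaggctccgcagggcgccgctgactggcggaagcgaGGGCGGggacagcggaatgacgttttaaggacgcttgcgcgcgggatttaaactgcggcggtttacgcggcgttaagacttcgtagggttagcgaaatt
TUBA4A, chr2:219253869-219254168, minus strand: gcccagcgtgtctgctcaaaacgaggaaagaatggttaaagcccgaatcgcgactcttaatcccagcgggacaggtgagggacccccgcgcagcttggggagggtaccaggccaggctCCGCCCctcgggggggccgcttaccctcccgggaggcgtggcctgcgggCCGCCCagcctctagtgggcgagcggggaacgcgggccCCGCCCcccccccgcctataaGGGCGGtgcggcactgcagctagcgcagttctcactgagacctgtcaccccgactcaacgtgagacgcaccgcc

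Positions are given relative to the annotated start. KIF11 held a CCAAT match, in its reverse form ATTGG, at -53 and a match to the cell cycle homology region, as TTCAAA, at -28. KIF20A held CCAAT matches at -94 and -67 and none to the cell cycle homology region. KIF2C and TUBA4A held GC boxes only, 2 and 4 of them. Over the 11 tested mitotic kinesins, 8 windows held CCAAT, or 72.7%, against 34.6% of all 35116 promoter windows. The cell cycle homology region was in 9 of them, or 81.8%, against 16.4% of all windows, and the GC box in 10, or 90.9%, against 45% of all windows, 56.3% of windows of protein-coding genes and 75.4% of those of tested members. CCAAT was in 34.7% of windows of protein-coding genes and 47.4% of those of tested members, and the cell cycle homology region in 13.7% and 24.6%. AAAGGTCA was in none of the windows of the 57 tested members that had one, against 1.22% of all windows. Of the windows of the 7 members that rose and had one, 7 held the GC box, 2 CCAAT and 1 the cell cycle homology region, and of the 7 that fell these numbers were 3, 4 and 1. A match is a description of the letters and no evidence of binding.

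Of 15 tested kinesins of transport, cilia and other roles, 2 rose, 1 fell and 12 did not pass. The shares that rose and fell were 13.3% and 6.67%, against 10.8% and 8.70% of all tested genes. The median difference of the 15 was 0.04. KIF16B, which moves early endosomes, had 7.88, 7.92 and 8.09 in siNR4A1, against 7.53, 7.58 and 7.60 in siControl. It rose by 0.39 ± 0.11 (SE, limma, adjusted p = 0.0177), but a dimmer probe differed by 0.13, and the call ended without siNR4A1 replicate 3, at 0.33, and without siControl replicate 1, at 0.38. KIF26B, an atypical kinesin without motor activity, had 6.78, 6.86 and 7.0 in siNR4A1, against 6.40, 6.62 and 6.59 in siControl. Its adjusted p was 0.0421 at a difference of 0.34 ± 0.11 (SE), with detection on 3 siNR4A1 and 2 siControl arrays, so that the siNR4A1 arrays alone, where it was higher, sufficed for its test. The call also ended with no background correction and in the authors' log2 values, at 0.27 in both, with the medians of detected probes equalized, at 0.22, and with the mean of its probes, at 0.26. It missed the threshold without siNR4A1 replicate 1, 2 or 3, at 0.39, 0.35 and 0.28, and without siControl replicate 1 or 3, at 0.29 and 0.34.

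KIF1B, which carries mitochondria and synaptic vesicle precursors through different splice forms, was the 1 kinesin that fell. It had 8.94, 8.99 and 9.09 in siNR4A1, against 9.38, 9.46 and 9.55 in siControl, a difference of -0.46 ± 0.11 (SE, limma, adjusted p = 0.00762). A second probe, ILMN_1659444, differed by -0.45. The remaining probe, ILMN_1743034, had 7.81, 7.97 and 7.85 in siNR4A1, against 7.69, 7.53 and 7.50 in siControl, at 0.30 ± 0.11 (SE, adjusted p = 0.0772 in the fit over probes). The groups were apart for all 3 probes, in opposite directions, and with the mean of the probes KIF1B stood at -0.20 and did not pass. Which transcript each probe reads is not given in the table.

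KIF1A, a vesicle motor of neurons, differed by -0.29 ± 0.11 (SE, adjusted p = 0.0815), with values of 9.71, 9.77 and 9.84 in siNR4A1, against 10.01, 10.23 and 9.95 in siControl. Its groups did not overlap, and it passed at -0.35 without siControl replicate 3. KIF3C, a subunit of the heterotrimeric kinesin-II, differed by -0.35 ± 0.13 (SE, adjusted p = 0.0613), while KIF3A and KIF3B differed by 0.17 and 0.04. The KIF3A probe was detected on 3 siNR4A1 arrays and 1 siControl array, so the siNR4A1 arrays alone, where it was higher, sufficed for its test. KIF5B, the ubiquitous conventional kinesin heavy chain, differed by 0.17, and KIF5A and KIF5C, its neuronal relatives, were not tested. KIF7, a regulator of Hedgehog signalling at the ciliary tip, differed by -0.19, KIF2A, a depolymerase, by -0.15, and KIF21A by -0.07. KIF24 and KIF27, at 0.00 and 0.07, and KIF1C and KIFC2, at 0.15 and 0.14, had overlapping groups.

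Of 11 tested dynein genes 0 rose, 3 fell and 8 did not pass, and at an unadjusted p under 0.05 in limma 2 were higher and 5 lower, against 17.8% and 14.4% of all tested genes. DYNC2LI1, the light intermediate chain of the ciliary dynein, had 8.04, 7.82 and 7.68 in siNR4A1, against 8.43, 8.56 and 8.41 in siControl. It fell by 0.62 ± 0.12 (SE), the largest fall of any tested member, or 1.54-fold (limma, adjusted p = 0.00153), and it fell with every array left out in turn. Its other probes, ILMN_1712945 and ILMN_2281734, were detected on no array and on 1 siControl array, and neither was kept. Its heavy chain DYNC2H1 differed by 0.05 ± 0.14 (SE, adjusted p = 0.839), with overlapping groups and a low siControl replicate 2 of 7.12.

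DYNC1I2, the intermediate chain that links cytoplasmic dynein to dynactin, had 9.83, 9.82 and 9.55 in siNR4A1, against 10.34, 10.22 and 10.28 in siControl. It fell by 0.55 ± 0.11 (SE, limma, adjusted p = 0.00302), and this call too held with every array left out in turn. Its neuronal counterpart DYNC1I1 was not detected on any array. DYNLT1, a light chain of the Tctex type, had 10.47, 10.35 and 10.44 in siNR4A1, against 11.05, 10.93 and 10.71 in siControl. It fell by 0.48 ± 0.12 (SE, limma, adjusted p = 0.00797), a call that ended only under the scalings by array medians, at -0.24, or by medians of detected probes, at -0.39.

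The motor subunit DYNC1H1, the heavy chain, had 10.30, 10.17 and 10.35 in siNR4A1, against 10.28, 10.03 and 9.99 in siControl. It differed by 0.17 ± 0.12 (SE, adjusted p = 0.332), with overlapping groups. The light intermediate chains, which hold cargo adaptors, differed by 0.28 for DYNC1LI1 and -0.26 for DYNC1LI2. DYNC1LI1 passed at 0.43 without siNR4A1 replicate 2. DYNLL2, an LC8-type light chain, differed by 0.32 ± 0.12 (SE, adjusted p = 0.0654) with groups apart, and DYNLL1 by 0.00 and -0.01 on its 2 probes. The brighter of these is listed as DNCL1, an older symbol. DYNLT3 differed by -0.30 ± 0.11 (SE, adjusted p = 0.0723) and passed at -0.39 without siControl replicate 2. The roadblock chain DYNLRB1 differed by -0.17 on its brightest probe, and of its 3 other probes 1 fell, at -0.38 (adjusted p = 0.0460 in the fit over probes), while 2 differed by -0.27 and -0.03.

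Dynactin activates dynein and ties it to cargo. None of the 6 tested DCTN genes passed the test in limma, and at an unadjusted p under 0.05 1 was higher and 2 lower, against 17.8% and 14.4% of all tested genes. Dynactin subunits with other symbols, such as ACTR1A and CAPZB, are counted below among the partners of dynein and dynactin. DCTN1, the large p150 subunit that binds microtubules, had 10.50, 10.41 and 10.37 in siNR4A1, against 10.48, 10.86 and 10.76 in siControl. Only siControl replicate 1 overlapped the siNR4A1 arrays, and without it DCTN1 passed at -0.38, against a difference of -0.28 with it. DCTN2, dynamitin, had 11.09, 11.07 and 11.09 in siNR4A1, against 11.31, 11.33 and 11.36 in siControl. The arrays within each group lay close together, but the moderated SE was 0.10 at a difference of -0.25, and the adjusted p was 0.105. DCTN3 and DCTN4 differed by 0.25 and 0.19 with groups apart, and DCTN5 and DCTN6 by -0.08 and -0.15 with overlapping groups.

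The 24 members that were not tested included 16 kinesins, 6 tubulins and 2 dyneins. For 18 of the 24 no probe was detected on any array, for 1 on 1 array and for 5 on 2. Beside KIF5A, KIF5C, DYNC1I1, TUBA4B and the 3 mitotic kinesins named above, they were KIF6, KIF9, KIF12, KIF13A, KIF13B, KIF17, KIF19, KIF21B, KIF25, KIF26A, KIFC3, DYNLRB2, TUBA3C, TUBA8, TUBAL3, TUBB1 and TUBB8. Several of these are known from ciliated cells, neurons or platelets, such as TUBB1, the beta-tubulin of platelets. Of the 66 tested members, 61 were detected on all 6 arrays.

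Partners of the motors and other microtubule genes were taken from 5 lists. Of 138 tested genes that are no members, 16 rose, 11 fell and 111 did not pass. That is 19.6%, against 19.5% of all tested genes, with a median difference of 0.01. As among the members, all calls ended when array medians were equalized.

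Of 23 tested partners of dynein and dynactin, 4 rose and 1 fell, or 17.4% and 4.35%, against 10.8% and 8.70% of all tested genes. PAFAH1B1, which encodes the dynein regulator LIS1, had 9.62, 9.66 and 9.74 in siNR4A1, against 8.97, 8.84 and 9.14 in siControl, and rose by 0.69 ± 0.11 (SE, limma, adjusted p = 4.95e-04). NDEL1, which binds LIS1 and dynein, rose by 0.49 on its brightest probe, with 0.16 on the other, and SPDL1, which recruits dynein to kinetochores, rose by 0.51. BICD2, an adaptor between dynein, dynactin and RAB6 vesicles, had 8.90, 8.63 and 8.96 in siNR4A1, against 9.11, 9.67 and 9.77 in siControl, and fell by 0.69 ± 0.15 (SE, limma, adjusted p = 0.00455). Its call also ended with the medians of detected probes equalized, at -0.64 (limma, adjusted p = 0.0646).

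Of 18 tested kinesin partners and relatives, 3 rose and 1 fell, or 16.7% and 5.56%, against 10.8% and 8.70% of all tested genes. CENPE, a kinetochore kinesin whose symbol keeps it outside the members, rose by 0.71 and by 0.61 on its 2 probes. RHOT1, which anchors motors to mitochondria, and FEZ2 rose by 0.40 and 0.37. The 2 other RHOT1 probes differed by 0.08 and 0.21, and with the mean of its probes RHOT1 stood at 0.23 and did not pass (limma, adjusted p = 0.140). RHOT1 missed the threshold without siNR4A1 replicate 1, 2 or 3, at 0.41, 0.36 and 0.43, and without siControl replicate 1 or 3, at 0.34 and 0.35. FEZ2 missed it without siNR4A1 replicate 2 or 3, at 0.39 and 0.28, and without siControl replicate 1 or 2, at 0.40 and 0.30. Of 17 tested partners of gamma-tubulin, 2 rose and 0 fell, with 2 higher and 2 lower at an unadjusted p under 0.05 in limma, against 17.8% and 14.4% of all tested genes. MZT1, a small subunit of the ring complex, rose by 0.56 ± 0.14 (SE) and by 0.54 and 0.63 on its 2 other probes, but missed the threshold without siNR4A1 replicate 3, at 0.48, or siControl replicate 1, at 0.40. PCNT, the centrosome scaffold pericentrin, rose by 0.33 and missed it without siNR4A1 replicate 1, 2 or 3, at 0.37, 0.30 and 0.31, and without siControl replicate 1 or 3, at 0.29 and 0.32.

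Of 37 tested genes of tubulin folding and modification, 3 rose and 6 fell. These shares were 8.11% and 16.2%, against 10.8% and 8.70% of all tested genes. The median difference was -0.12, against 0.02 over all tested genes. ARL2, a small GTPase that works with the tubulin cofactors, had 10.49, 10.62 and 10.68 in siNR4A1, against 11.62, 11.40 and 11.62 in siControl, and fell by 0.95 ± 0.11 (SE, limma, adjusted p = 2.61e-05). AGBL5, a carboxypeptidase that trims tubulin tails, fell by 0.68, while its other probe differed by -0.15. SVBP, the partner of the vasohibin enzymes that remove tubulin's final tyrosine, rose by 0.56 ± 0.11 (SE, limma, adjusted p = 0.00191). PFDN2, a prefoldin subunit, rose by 0.39 and missed the threshold without siNR4A1 replicate 2 or 3, at 0.30 and 0.37, and without siControl replicate 1, at 0.37.

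Of 44 tested microtubule-binding proteins, 4 rose and 3 fell, or 9.09% and 6.82%, against 10.8% and 8.70% of all tested genes. CLASP2, which stabilizes plus ends, had 6.69, 6.67 and 6.35 in siNR4A1, against 7.80, 7.47 and 7.66 in siControl. Its probe was detected on 2 siNR4A1 and 3 siControl arrays, so the siControl arrays alone, where it was higher, sufficed for its test. It fell by 1.08 ± 0.13 (SE, limma, adjusted p = 2.24e-05). STMN1, stathmin, which sequesters tubulin dimers, had 10.07, 10.13 and 9.86 in siNR4A1, against 10.91, 10.90 and 10.65 in siControl. It fell by 0.80 ± 0.12 (SE, limma, adjusted p = 1.86e-04), and of its 2 other probes 1 fell by 0.96 and 1 differed by -0.27. KATNBL1, a katanin regulator, rose by 0.56, and TACC1, a protein of the transforming acidic coiled-coil family, by 0.50. MAP2, named above among neuronal genes, fell by 0.49, and its 4 probes ranged from -0.61 to 0.06.

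**Figure D4:**
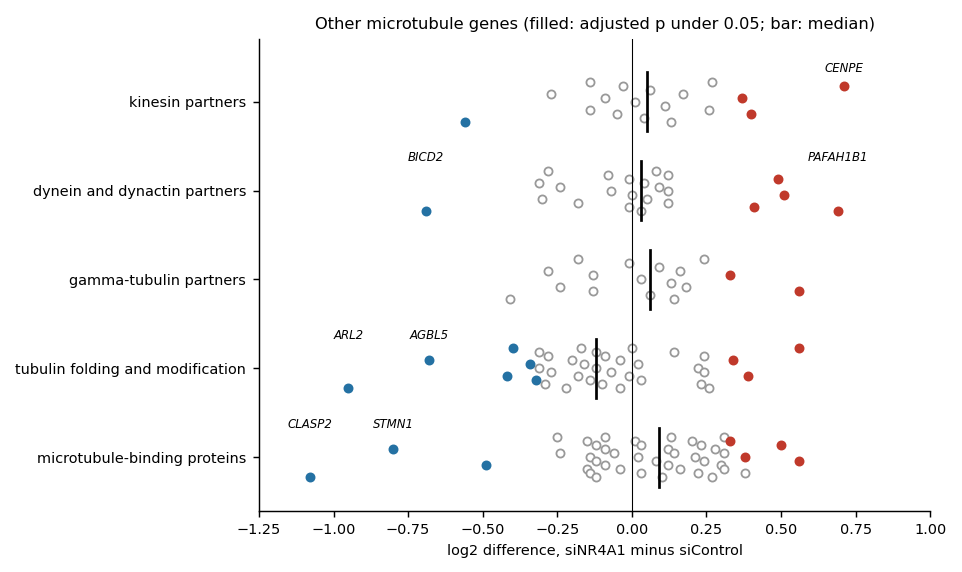
Difference of siNR4A1 minus siControl (horizontal axis, log2) for each tested gene of the 5 lists of other microtubule genes, with the list median as a black bar. Filled points had an adjusted p under 0.05, red where the gene rose and blue where it fell: CLASP2 at -1.08 and ARL2 at -0.95 lie farthest to the left, and CENPE at 0.71 and PAFAH1B1 at 0.69 farthest to the right.

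**Figure D5:**
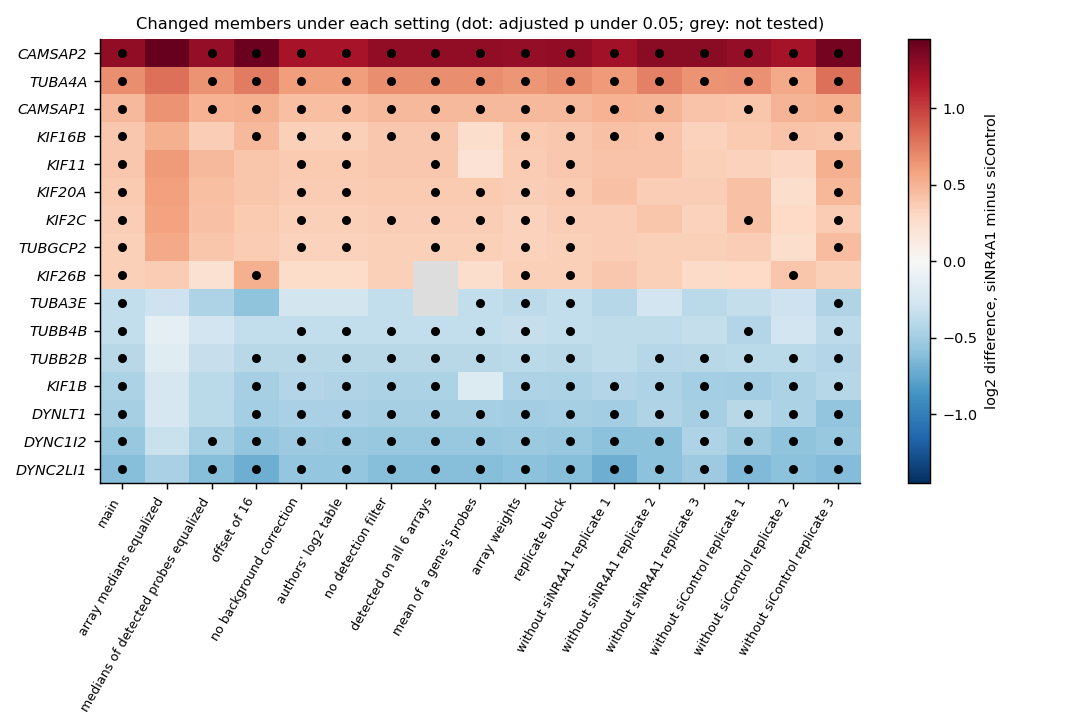
Difference of siNR4A1 minus siControl (colour, log2) of the 16 changed members under the main setting and 16 alternatives, with a dot where the adjusted p was under 0.05 and grey where the gene was not tested. No dot stands in the column of equalized array medians, and CAMSAP2, TUBA4A, DYNC1I2 and DYNC2LI1 keep a dot in every other column.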

How the data were processed

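Total RNA of 6 PANC-1 samples had been labelled as biotinylated cRNA and hybridised to Illumina expression arrays, with BeadStudio listed, without a version, among tools in the submitters' processing notes. Per the file headers, one deposited table gives non-normalized probe intensity on a linear scale. It carries neither detection p-values nor controls. A deposited value table on the log2 scale gives the authors' processed signals, which lay within 0.005 of quantile-normalized log2 signals and served as an alternative. The chip type and genome build are not given in the sources used here.

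Intensities were background-corrected (normexp, offset 50), quantile-normalized and log2-transformed. As detection p-values were absent, a probe counted as detected above the 95% point of its array's background, estimated from the mode of the log2 signals (density bandwidth 0.03) and the values below it, and was kept when detected on at least 3 arrays. That kept 19066 of 47230 probes, 18189 of them with a name. Symbols were updated through RefSeq's GRCh38.p14 gene table, used for names and gene order: 27036 probes had a current symbol, 4626 a synonym of 1 gene and 3486 an Entrez number, and 8758 kept the table's name. Promoter windows came from RefSeq's promoter table of that build. The brightest kept probe stood for a gene. All 6 arrays were fitted in limma 3.58.1 under R 4.3.3 (lmFit, eBayes) with no covariate, two-sided, and single probes were read from the same model over all kept named probes. The steps were tested on simulated signals.

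Members and lists were chosen with earlier results of these data known. Named were all changed members, the tested tubulins, CAMSAP, dynein and dynactin genes, the 6 brightest kinesins, and up to 4 genes per list with the smallest p past the threshold. A changed gene of the kinesin partner list is not reported here. Other kinesins, the TUBGCP genes, MAP2 and CAMSAP3 were named after their values were seen. Alternatives changed the scaling, offset, background step, source table, detection filter, probe rule, array weights, replicate block or left out 1 array.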

Additional observations from a re-analysis of the deposited data

How the results depend on the processing

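With array medians equalized, 0 members, 0 of the other microtubule genes and 0 of all genes changed in limma, with 3, 12 and 1089 at an unadjusted p under 0.05. With medians of detected probes equalized these counts of changed genes were 5, 15 and 1254, and with an offset of 16 the member count was 10, of which 5 rose and 5 fell. Under the main setting they were 16, 27 and 2674. Under the other settings that kept all arrays, each count stayed within 1.5 times of these. With 1 array left out, members changed numbered 7 to 21, other microtubule genes 14 to 28 and all genes 1497 to 2974. The lowest of each came without siNR4A1 replicate 3 and the highest without siControl replicate 3. Other microtubule genes numbered 16 without siNR4A1 replicate 2 and 17 without siControl replicate 1, and all genes 1755 without siNR4A1 replicate 2. The causes were not tested. All 16 changed members kept the sign of their difference under every alternative that tested them.

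Replicate numbers are shared by the labels of both groups. With the replicate block, 17 members changed, 9 up and 8 down, as did 31 other microtubule genes and 2998 genes in all. Deviations of same-numbered arrays correlated at 0.03, 0.08 and 0.17, and those of arrays with unlike numbers from -0.13 to 0.06. As not all same-numbered values were over 0.1, the main fit used no pairing. Whether same-numbered arrays share more than a number was not tested. Of the siNR4A1 arrays, replicates 2 and 3 correlated best with their own number and replicate 1 with siControl replicate 2, at 0.06. Genes near the detection threshold, such as TUBA3E, KIF26B, TUBGCP3 and, in siNR4A1, CLASP2, are limited by signal over background.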
